A study of Homo sapiens with 5 samples.

Results

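The transcripts described here encode the receptors, adaptors and extracellular binding proteins of the insulin and insulin-like growth factor (IGF) axis. The 10 genes, IGF1R, INSR, IGF2R, IRS1, IRS2, IGFBP2, IGFBP3, IGFBP4, IGFBP5 and IGFBP6, were chosen by symbol from the 18512 genes of the authors' deposited table, and each stood on a single row. Persister cells (3 libraries) were BT474 cells left after 9 days of culture with 2 µM lapatinib, a kinase inhibitor of HER2 and EGFR, in medium renewed every 3 days. Parental cells (2 libraries) were BT474 cells kept over the same time in 0.01% DMSO, the solvent level that both groups shared. BT474 is an established line from a luminal breast tumour with amplified HER2, so both groups represent a single tumour, and the submitters call the libraries biological replicates. Polyadenylated RNA was sequenced and the table holds 1 FPKM value per gene and group (read fragments, scaled for transcript length and for library size), so no SD, n or depth can be given for any value below. The labels give no group after brief drug exposure and none after release from the drug.

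Insulin and the IGFs bind the receptor tyrosine kinases INSR and IGF1R, which phosphorylate the docking proteins IRS1 and IRS2. These in turn recruit PI3K and so activate AKT, which holds FOXO transcription factors out of the nucleus. INSR and IRS2 are known FOXO-activated genes, so that the pathway restrains its own receptors and adaptors while it is active. IGF2R has no kinase domain and carries IGF2 and mannose 6-phosphate-tagged enzymes to lysosomes, and the secreted IGF-binding proteins (IGFBPs) hold IGFs in the extracellular fluid.

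Both signalling receptors, both IRS adaptors and IGFBP3 were higher in persister cells, whereas the abundant binding proteins IGFBP2 and IGFBP4 were not called. By the q-value of the authors' deposited table, 6 of the 9 members with an estimate passed 0.05, and all 6 were higher in persister cells. Over all 13617 genes that their test covered, 69.9% passed that threshold, 30.9% as higher and 39% as lower, so a call by itself is common here. All differences below are persister minus parental values of log2(FPKM + 1). Called genes that rose by at least 1 made up 2.98% of the genes tested and 5 of the 9 members, and those that fell by at least 1 made up 6.01% of the genes tested and 0 members. At a q-value under 0.01 the shares over all genes were 26.9% higher and 35.2% lower, and the members stood at 6 and 0. The median difference of the 9 members was 1.13, against -0.04 over all genes tested. Genes with at least 1 FPKM in both groups had a median difference of -0.12, and relative to it the members' median was 1.25. With the FPKM of both groups scaled to the same sum, the all-gene median became 0.19. Calls over all genes were then 5216 higher and 4298 lower in place of 4206 and 5308. The deposited q-values were kept, so only the direction of a call could change. Both this scaling and centring on the all-gene median shift differences upward, so the 6 members could not lose their direction. These are bulk samples, so a change in every cell and a change in which cells make up the culture cannot be told apart.

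**Figure D1:**
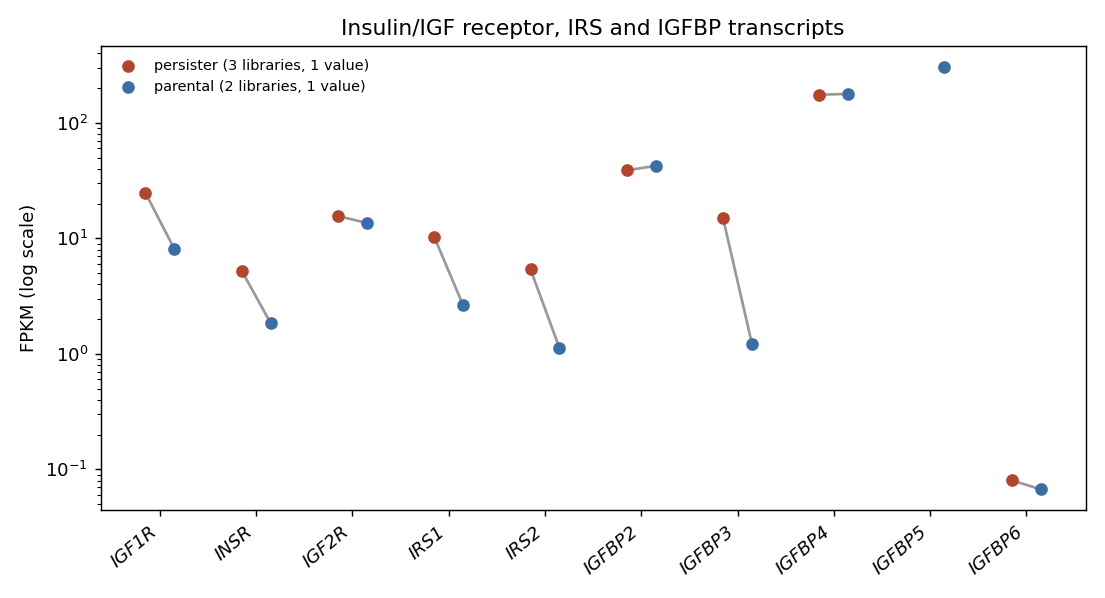
FPKM of the 10 members on a log scale, persister (red, left) and parental (blue, right), 1 authors' value per group with no error available. IGF1R, INSR, IRS1, IRS2 and IGFBP3 lie clearly higher in persister cells, IGF2R, IGFBP2, IGFBP4 and IGFBP6 lie nearly level, and IGFBP5 has a parental value (304 FPKM) without a persister estimate.

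IGF1R, the receptor for IGF1 and IGF2, had 24.7 FPKM in persister cells, against 8.09 FPKM in parental cells. This is a ratio of 3.06 and a difference of 1.50, and the authors' deposited table prints its q-value as 0. A q-value of 0 is common there, being printed in 2712 rows. Of all genes tested, 0.955% had a larger positive difference. INSR, the insulin receptor, had 5.24 FPKM in persister cells, against 1.85 FPKM in parental cells. Its ratio was 2.83 and its difference 1.13, the authors' deposited table again prints a q-value of 0, and 2.23% of tested genes had a larger one. The sum over both receptors was 30.0 FPKM in persister cells and 9.94 FPKM in parental cells. INSR made up 17.5% of that sum in persister cells and 18.6% in parental cells, so that the receptors kept nearly the same proportion while their sum differed. Both INSR splice forms, with and without the exon that distinguishes the metabolic from the IGF2-binding receptor, share 1 row and cannot be separated.

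IGF2R, the receptor that takes up IGF2 for degradation, moved far less. It had 15.6 FPKM in persister cells and 13.6 FPKM in parental cells, a difference of 0.19 that was called higher with a q-value of 0.00817 in the authors' deposited table, and 28.1% of tested genes had a larger one. The difference was 0.30 relative to the all-gene median and 0.52 with the groups scaled to the same sum. The ratio of IGF1R to IGF2R transcripts was 1.58 in persister cells and 0.595 in parental cells, so the order of these receptors by FPKM was the opposite in the 2 groups.

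IRS1, a docking protein for both receptors, had 10.3 FPKM in persister cells, against 2.63 FPKM in parental cells. Its ratio was 3.91 and its difference 1.64, the authors' deposited table prints its q-value as 0, and 0.764% of tested genes had a larger one. IRS2, its paralogue, had 5.39 FPKM in persister cells and 1.13 FPKM in parental cells. Its ratio of 4.78 was the highest among the receptors and adaptors, its difference was 1.59 and the authors' deposited table prints its q-value as 0. Since the added 1 FPKM shrinks changes of low genes, IRS2 stood below IRS1 on that scale, while a pseudocount of 0.1 gave 2.16 for IRS2 and 1.93 for IRS1. The adaptors summed to 15.7 FPKM in persister cells and 3.76 FPKM in parental cells. IRS2 was 34.4% of that sum in persister cells and 30.0% in parental cells, with IRS1 the more abundant in both groups.

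IGFBP3 had the largest difference of the members. This binding protein carries IGFs in the circulation, binds the cell surface and is also described as limiting growth independently of IGFs. It had 14.9 FPKM in persister cells, against 1.22 FPKM in parental cells, a ratio of 12.2 and a difference of 2.84, and the authors' deposited table prints its q-value as 0. Of the 13617 tested genes, 12 had a larger difference. On the plane of both group values on the log2 scale, the tested genes nearest to IGFBP3 were B4GALNT3, at a distance of 0.12 with 16.0 and 1.11 FPKM in persister and parental cells, HSD17B11, at 0.27 with 12.4 and 1.37 FPKM, and GTF2A1L, at 0.29 with 18.1 and 1.04 FPKM. This likeness rests on 2 group values only, and GTF2A1L overlaps a neighbouring gene in libraries that did not keep strand.

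The IGFBPs with high or very low levels were not called. IGFBP4, an IGF inhibitor made by many breast epithelial cells, had 175 FPKM in persister cells and 178 FPKM in parental cells (q = 0.772 in the authors' deposited table). IGFBP2 had 38.8 FPKM in persister cells and 42.4 FPKM in parental cells (q = 0.158 in the authors' deposited table). Their differences of -0.024 for IGFBP4 and -0.12 for IGFBP2 had no stable sign, being 0.092 for IGFBP4 and -0.0083 for IGFBP2 relative to the all-gene median, and 0.33 for IGFBP4 and 0.23 for IGFBP2 with the groups scaled to the same sum. IGFBP6, which prefers IGF2, was near the lower end of the tested genes in both groups, at 0.0803 FPKM in persister and 0.0672 FPKM in parental cells (q = 0.770 in the authors' deposited table). A q-value above the threshold does not show that the levels were equal, and no interval can be formed without values per library.

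IGFBP5 could not be compared. The authors' deposited table listed 304 FPKM in parental cells, the highest value of the 10 members there, and exactly 0 in persister cells, with a fold of 1 and a q-value of 1. RPL23, a ribosomal protein gene that every cell uses, had the same pattern, listed at exactly 0 in persister cells and at 5076 FPKM in parental cells. The opposite pattern, exactly 0 in parental cells and at least 10 FPKM in persister cells, was found in 0 genes. IGFBP5 and RPL23 are among the 145 rows whose fold and q-value were set to 1 although the values differ, and the persister 0 of IGFBP5 is taken as missing.

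The 4 binding proteins with estimates in both groups summed to 229 FPKM in persister cells and 222 FPKM in parental cells. IGFBP5, left out of this sum, had 304 FPKM in parental cells, more than the 4 together, and an unknown amount in persister cells. Of the sum without IGFBP5, IGFBP4 supplied 76.5% in persister cells and 80.3% in parental cells, and IGFBP2 supplied 17.0% in persister cells and 19.1% in parental cells. The share of IGFBP3 was 6.52% in persister cells and 0.551% in parental cells. The 12.2-fold rise of IGFBP3 therefore left it well below IGFBP4, which exceeded it 11.7 times in persister cells and 146 times in parental cells. In order of FPKM, the persister values ran IGFBP4, IGFBP2, IGF1R, IGF2R, IGFBP3, IRS1, IRS2, INSR and IGFBP6, and the parental values ran IGFBP5, IGFBP4, IGFBP2, IGF2R, IGF1R, IRS1, INSR, IGFBP3, IRS2 and IGFBP6. Which neighbours in these orders differ beyond the spread between libraries cannot be stated.

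**Figure D2:**
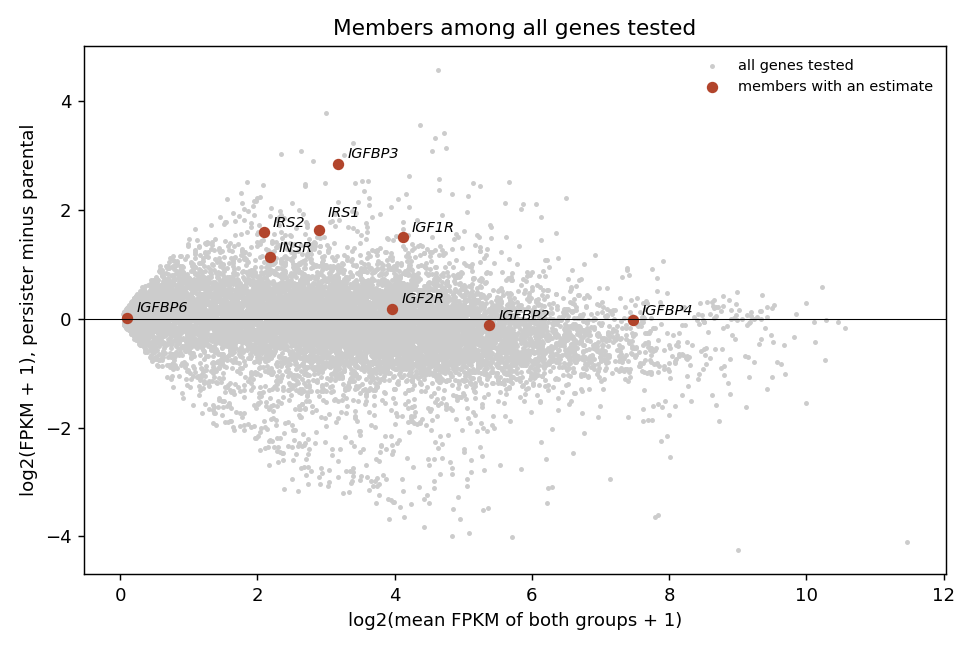
Difference in log2(FPKM + 1), persister minus parental, against log2 of the mean FPKM of both groups plus 1, for all 13617 genes tested (grey) and the 9 members with an estimate (red). IGFBP3 lies near the upper edge, IRS1, IRS2, IGF1R and INSR lie between 1.13 and 1.64, and IGF2R, IGFBP2, IGFBP4 and IGFBP6 lie within 0.19 of 0.

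The members that rose by at least 1 include all of the long receptor and adaptor transcripts except IGF2R, and long transcripts were more often higher in these data. The longest matched transcripts were 12235 nt for IGF1R, 8954 nt for INSR, 9705 nt for IRS1, 8138 nt for IRS2 and 14044 nt for IGF2R. Of the 1374 tested genes with transcripts of at least 7000 nt, 46.1% were called higher, 4.51% were called higher by at least 1, and the median difference was 0.09. Of the 3406 tested genes with transcripts under 2000 nt, where IGFBP2 and IGFBP6 belong, 21.5% were called higher, 2.17% by at least 1, and the median was -0.14. IGFBP3, at 2262 nt, and IGFBP4, at 2200 nt, belong to the class of 2000 to 4000 nt, where 29% of 5231 genes were called higher and 2.79% by at least 1. The part of transcript length in the members' differences was not tested.

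**Figure D3:**
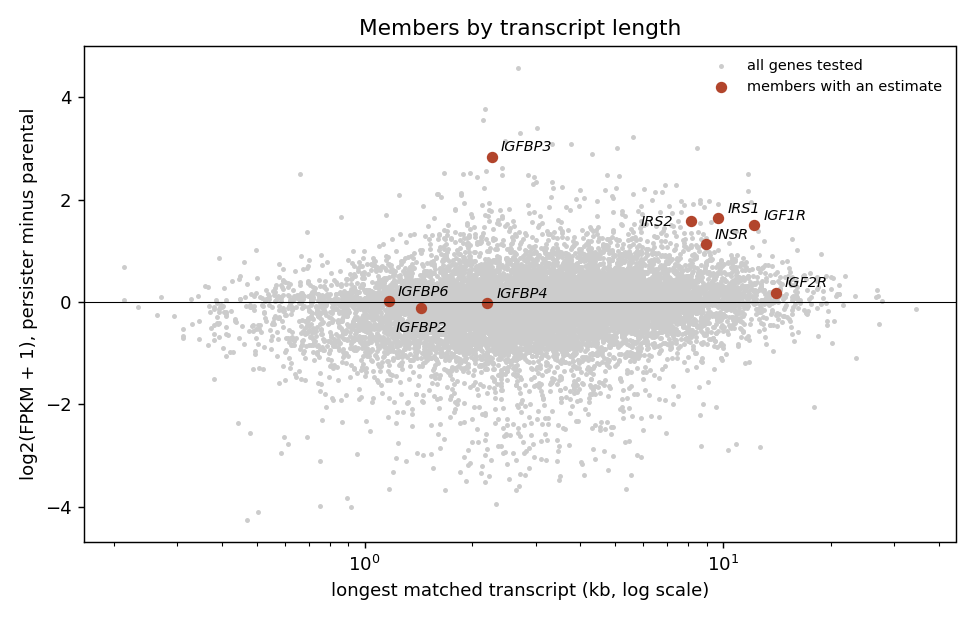
Difference in log2(FPKM + 1), persister minus parental, against the length of the longest matched transcript (kb, log scale) for genes tested (grey) and members (red). The 5 receptor and adaptor transcripts sit at the long end, where IGF2R is close to 0, and IGFBP3 (2262 nt) rises among shorter transcripts, with IGFBP4 (2200 nt) close to 0 beside it.

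For IRS2, IRS1, IGF1R, INSR and IGFBP3, the members that rose by at least 1, the 250 bases upstream of the annotated starts are shown. They run 5′ to 3′ in the direction of the gene and come from RefSeq on GRCh38.p14, a different build from that of the authors. Capitals mark the GC box GGGCGG, which Sp1-type factors bind, and, in IRS2 alone among these 5, the insulin response element TGTTTTG, both searched on either strand, so that CCGCCC is a GC box on the other strand.
IRS2, chr13:109786584-109786833, minus strand: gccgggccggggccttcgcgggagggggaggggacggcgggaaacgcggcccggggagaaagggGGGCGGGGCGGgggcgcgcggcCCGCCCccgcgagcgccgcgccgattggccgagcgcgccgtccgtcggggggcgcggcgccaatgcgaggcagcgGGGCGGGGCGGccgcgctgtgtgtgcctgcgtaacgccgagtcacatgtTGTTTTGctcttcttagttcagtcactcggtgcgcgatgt
IRS1, chr2:226799821-226800070, minus strand: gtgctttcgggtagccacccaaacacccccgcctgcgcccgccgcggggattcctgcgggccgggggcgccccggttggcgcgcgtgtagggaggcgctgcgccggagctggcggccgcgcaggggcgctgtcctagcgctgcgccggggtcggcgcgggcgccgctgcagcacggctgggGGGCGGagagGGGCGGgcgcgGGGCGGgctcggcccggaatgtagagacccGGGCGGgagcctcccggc
IGF1R, chr15:98648289-98648538, plus strand: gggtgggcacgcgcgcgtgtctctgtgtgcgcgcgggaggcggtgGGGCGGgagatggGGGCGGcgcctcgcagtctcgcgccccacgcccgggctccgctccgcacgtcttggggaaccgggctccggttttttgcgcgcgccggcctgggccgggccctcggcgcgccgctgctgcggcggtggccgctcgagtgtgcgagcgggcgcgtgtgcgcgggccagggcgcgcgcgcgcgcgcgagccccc
INSR, chr19:7294415-7294664, minus strand: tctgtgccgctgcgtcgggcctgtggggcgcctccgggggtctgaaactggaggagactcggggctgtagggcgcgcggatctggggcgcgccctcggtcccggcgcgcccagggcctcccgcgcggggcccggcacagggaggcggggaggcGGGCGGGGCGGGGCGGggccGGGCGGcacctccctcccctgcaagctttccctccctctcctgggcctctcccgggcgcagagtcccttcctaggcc
IGFBP3, chr7:45921273-45921522, minus strand: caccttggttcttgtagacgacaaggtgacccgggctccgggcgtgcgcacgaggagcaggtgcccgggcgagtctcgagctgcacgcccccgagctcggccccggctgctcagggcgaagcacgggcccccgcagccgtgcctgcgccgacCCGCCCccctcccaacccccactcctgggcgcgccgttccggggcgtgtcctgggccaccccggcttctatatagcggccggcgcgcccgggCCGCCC

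All of these windows were rich in G and C, from 76% in IGFBP3 to 81.2% in IGF1R, against a median of 58% over 35114 windows of the same length. GC boxes numbered 5 in IRS2, 4 each in IRS1 and INSR, and 2 each in IGF1R and IGFBP3, with neighbouring copies overlapping in IRS2 and INSR, and 42.6% of all windows hold at least 1. Neither feature was limited to the members that rose by at least 1. The window of IGF2R, whose difference was 0.19, had 6 GC boxes, the highest number among the members, and 79.2% G and C. IGFBP4, not called, had 71.6% and 1 GC box, and 10 of the 12 member windows held at least 1 GC box. The element TGTTTTG, which FOXO factors can bind and which was described in the IRS2 promoter, starts 40 bases upstream of the annotated start of IRS2, and 4.3% of all windows hold it. The canonical FOXO site TGTTTAC is held by 2.98% of windows and, among the members, was found only in that of IGFBP6, which was not called. TATAAA was found only in the window of IGFBP4 among the members (10.7% of all windows), and CACGTG only in that of IGF2R, with 3 copies (6.35% of all windows). A match is a run of letters and not a shown binding site, other starts of these genes were not searched except for 3 starts of IGFBP2, and a window without a match says nothing of more distant sites.

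The genes next to those 5 were read in the same table. Of their 10 immediate neighbours, 6 were not covered by the test, at or below 0.0427 FPKM in both groups, where log2(FPKM + 1) holds any difference near 0. Of the 4 that were covered, 1 was called higher and 0 lower, with differences of at most 0.28. Of the 10 genes next but one, 7 were covered, 6 were called higher and 1 lower. The shares over all genes tested were 30.9% higher and 39% lower. Beside IRS2, MYO16 had 0.0226 FPKM in persister and 0.0116 FPKM in parental cells and COL4A1 had 0.00873 FPKM in persister and 0.0136 FPKM in parental cells, neither covered by the test, and the collagen gene COL4A2, the next but one, was called lower at 0.0826 FPKM in persister and 0.349 FPKM in parental cells, a difference of -0.32. Beside IRS1, RHBDD1 had 4.70 FPKM in persister and 4.08 FPKM in parental cells (q = 0.137 in the authors' deposited table). Beside IGF1R, the muscle and neural filament gene SYNM, the next but one, was called higher at 4.19 FPKM in persister and 3.10 FPKM in parental cells, a difference of 0.34. Next to INSR, the zinc finger gene ZNF557 was called higher at 1.81 FPKM in persister and 1.32 FPKM in parental cells. PEX11G, a peroxisomal membrane protein gene and the next but one to INSR, was called higher at 1.56 FPKM in persister and 0.558 FPKM in parental cells, a difference of 0.72.

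IGFBP genes lie in pairs or alone beside genes of the tensin family, and these neighbours allow a comparison within each locus. IGFBP1, which adjoins IGFBP3, was at 0.0158 FPKM in persister and 0.00819 FPKM in parental cells and was not covered by the test, and TNS3 on the other side had 7.33 FPKM in persister and 8.07 FPKM in parental cells (q = 0.104 in the authors' deposited table). ADCY1, an adenylate cyclase gene beyond IGFBP1, was called higher at 3.42 FPKM in persister and 0.677 FPKM in parental cells, a difference of 1.40. IGFBP4 lies between TOP2A, the mitotic topoisomerase, called lower at 4.31 FPKM in persister and 41.1 FPKM in parental cells, and TNS4, called lower at 0.344 FPKM in persister and 0.606 FPKM in parental cells. TNS1, beyond IGFBP5, was called higher with a difference of 0.27, and TNS2, near IGFBP6, had a q-value of 0.0977 in the authors' deposited table.

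The ligands of the axis were scarcely represented in these cells. The row named INS carries transcripts of INS, IGF2 and their read-through, so insulin and IGF2 have 1 shared value, which was 0.0210 FPKM in persister and 0.0622 FPKM in parental cells and was not covered by the test. IGF1 was at 0.0228 FPKM in persister and 0.0336 FPKM in parental cells. IGFALS, which encodes the acid-labile subunit that forms a circulating complex with IGFBP3, was called higher at 0.403 FPKM in persister and 0.0780 FPKM in parental cells. Of the family members outside the 10, IRS4 was called higher at 0.180 FPKM in persister and 0.00888 FPKM in parental cells. IGFALS and IRS4 were thus below 1 FPKM in both groups, and their calls compare low levels. IGFBP1, IGFBP7, IGFBPL1 and the insulin receptor-related receptor INSRR were at or below 0.0446 FPKM in both groups and were not covered by the test.

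Other genes of the axis, in 10 lists of 87 genes, moved both ways. Of the 68 covered by the authors' test, 25 were called higher and 16 lower (36.8% and 23.5%, against 30.9% and 39% of all genes tested), with a median difference of 0.01. With the groups scaled to the same sum the split was 31 higher and 10 lower. Proreceptor processing and receptor turnover had 5 of 10 higher and 3 lower (median 0.16), and 6 higher and 2 lower with equal sums. FURIN, the protease that cleaves the IGF1R and INSR precursors, rose to 8.90 FPKM in persister cells, against 2.60 FPKM in parental cells, a difference of 1.46. CAV1, a caveolar protein that binds both receptors, rose to 1.34 FPKM in persister cells, against 0.0599 FPKM in parental cells. MDM2, a ubiquitin ligase for IGF1R and p53, fell to 11.5 FPKM in persister cells, against 17.6 FPKM in parental cells, a difference of -0.57. The sum of this list was 62.0 FPKM in persister and 63.7 FPKM in parental cells.

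Receptor-proximal adaptors other than IRS proteins were called in both directions, with 4 of 15 tested higher and 4 lower. Among all genes tested, 30.9% were called higher and 39% lower. With equal sums the adaptors had 5 higher and 3 lower. Their median was -0.07 as deposited, 0.04 relative to the all-gene median and 0.27 with equal sums. SOS1, the RAS exchange factor, rose to 9.34 FPKM in persister cells, against 4.39 FPKM in parental cells, and SH2B1, an adaptor that enhances insulin receptor activity, to 10.8 FPKM in persister cells, against 5.53 FPKM in parental cells. PIK3R1, the regulatory PI3K subunit that binds IRS proteins, rose to 16.8 FPKM in persister cells, against 10.7 FPKM in parental cells. PTPN11, the phosphatase SHP2 that binds IRS proteins, fell to 22.8 FPKM in persister cells, against 34.0 FPKM in parental cells, a difference of -0.56. SH2B2, another SH2B-family adaptor of the insulin receptor, fell to 0.757 FPKM in persister cells, against 1.49 FPKM in parental cells, a difference of -0.50. None of the differences named for this list reached 1 in size, the highest being 0.94 for SOS1.

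Inhibitors of receptor and IRS signalling had 6 of 15 higher and 4 lower, beside 30.9% and 39% of all genes tested. Their median was 0.12 (0.24 relative to the all-gene median). SOCS2, a cytokine-signalling suppressor that can bind IGF1R, rose to 9.15 FPKM in persister cells, against 2.02 FPKM in parental cells, a difference of 1.75. TRIB3, an AKT-binding pseudokinase, fell to 51.5 FPKM in persister cells, against 113 FPKM in parental cells, a difference of -1.12. ENPP1, a membrane enzyme that inhibits the insulin receptor, fell to 5.61 FPKM in persister cells, against 13.0 FPKM in parental cells, a difference of -1.09. The list thus held changes of opposite sign among proteins with a similar described role.

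The sorting machinery that works with IGF2R was called both ways. Of 12 genes for mannose 6-phosphate tagging and sorting, 2 were called higher and 3 lower as deposited (30.9% and 39% of all genes tested). With equal sums the list had 5 higher and 0 lower. GNPTG, a subunit of the enzyme that starts the tag, was called higher at 24.4 FPKM in persister and 14.0 FPKM in parental cells, a difference of 0.76. NAGPA, which uncovers the tag, was called higher with a difference of 0.36. VPS29, a retromer subunit, was called lower with a difference of -0.32, and the other mannose 6-phosphate receptor M6PR had 44.6 FPKM in persister and 48.8 FPKM in parental cells (q = 0.109 in the authors' deposited table).

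Of 12 IGFBP proteases and their inhibitors, 8 were not covered by the test. Of the 4 tested, 1 was called higher and 1 lower, beside 30.9% and 39% of all genes tested. The most abundant, the lysosomal protease CTSD, had 154 FPKM in persister and 159 FPKM in parental cells (q = 0.598 in the authors' deposited table). PAPPA, the protease for IGFBP4, was at 0.0471 FPKM in persister and 0.0260 FPKM in parental cells and was not covered. STC2, a secreted inhibitor of PAPPA, rose to 19.2 FPKM in persister cells, against 9.73 FPKM in parental cells, a difference of 0.91, and ADAM9 was called lower with a difference of -0.42. Of 5 tested surface partners of IGFBPs, 2 were called higher and 1 lower, beside the same shares of all genes tested. TGFBR2, the type II TGF-beta receptor, rose by 1.07 to 9.52 FPKM in persister cells. LRP1 rose to 0.938 FPKM in persister cells, against 0.387 FPKM in parental cells, and ITGB1 fell by 0.37. TMEM219, described as a receptor for IGFBP3, had 35.3 FPKM in persister and 35.6 FPKM in parental cells (q = 0.939 in the authors' deposited table). The IGF2 mRNA-binding proteins IGF2BP1 and IGF2BP3 were at 0.220 and 0.137 FPKM in persister cells and at 0.223 and 0.136 FPKM in parental cells, and neither was called.

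All 3 tested FOXO factors were called higher, as were 30.9% of all genes tested. FOXO4 rose to 5.97 FPKM in persister cells, against 1.78 FPKM in parental cells, and FOXO1 to 3.09 FPKM in persister cells, against 1.24 FPKM in parental cells. FOXO3 rose to 19.8 FPKM in persister cells, against 11.5 FPKM in parental cells. Their differences were 1.32 for FOXO4, 0.86 for FOXO1 and 0.74 for FOXO3. Both other scalings shift differences upward and so could not change these signs. ERBB3, a receptor that also docks PI3K, was called higher with a difference of 1.01 and EGFR with 0.27, and ERBB2 was listed at 0 in both groups, so the level of the drug's main target cannot serve as a check.

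**Figure D4:**
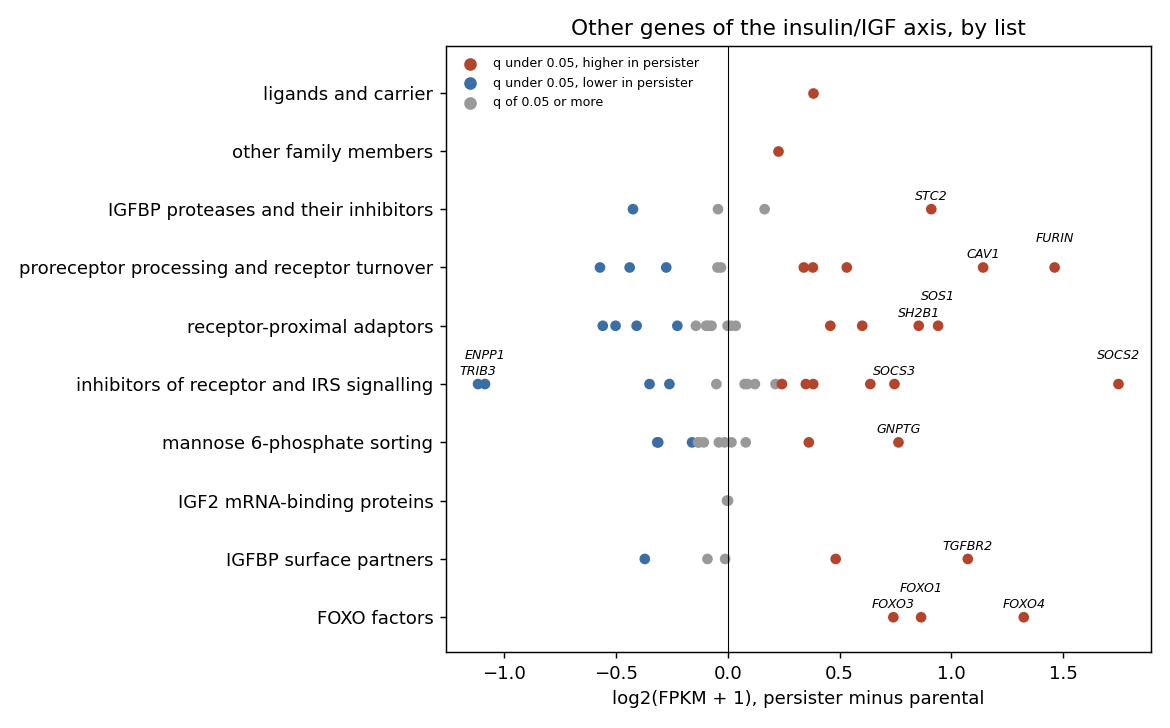
Difference in log2(FPKM + 1), persister minus parental, for the tested genes of 10 lists of the insulin/IGF axis, 1 point per gene, coloured by the authors' q-value and direction. SOCS2 (1.75), FURIN (1.46) and FOXO4 (1.32) lie furthest to the right and TRIB3 (-1.12) and ENPP1 (-1.09) furthest to the left.

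Markers were checked because several IGFBPs are also made by stromal cells. Of 7 luminal markers all were tested, 2 (GATA3 and ESR1) were called higher and 5 lower, beside 30.9% and 39% of all genes tested. Their sum, mostly from keratins, was 1757 FPKM in persister and 2367 FPKM in parental cells. The sum over all rows also differed, at 260213 FPKM in persister and 333324 FPKM in parental cells. The median difference of the luminal markers was -0.43 as deposited and -0.08 with the groups scaled to the same sum. Of 8 fibroblast markers, COL1A1 alone was covered by the test, at 8.73 FPKM in persister and 13.4 FPKM in parental cells, and the other 7, PDGFRA, PDGFRB, LUM, DCN, THY1, COL1A2 and COL3A1, were at or below 0.0164 FPKM in both groups. The summed levels of the 5 immune markers were 1.98 FPKM in persister and 2.45 FPKM in parental cells, mostly from CD68, and those of the 4 endothelial markers were 0.136 FPKM in persister and 1.10 FPKM in parental cells.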

How the data were processed

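Polyadenylated RNA of 3 persister and 2 parental cultures of BT474 was analysed from 1 deposited table. The tools named in the submitters' processing notes are TopHat2 2.0.6, Cuffdiff 2.0.2, Cufflinks and CASAVA 1.8, with the build hg18, and the libraries did not keep strand, per the labels' protocols. The authors deposited 1 FPKM value per gene and group, an adjusted p (q-value), with its adjustment not given in sources used here, and a fold change as a ratio of persister to parental FPKM, which is text in 935 of 18803 rows. Counts and values per library are not part of the table, so depth, replicate spread and counting error are unknown. The planned test per library could not be made, so calls are the authors' q-values under 0.05 among genes with a q-value below 1, and no test was computed here.

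Differences are log2(FPKM + 1), persister minus parental, computed in Python 3.11.15 with pandas 2.3.3. For the 269 symbols on more than 1 row, the row highest in mean FPKM was kept. Rows with fold and q-value of 1 but FPKM values more than 0.6% apart were taken as having no estimate. Transcript lengths (98.1% of tested genes) and gene neighbours came from GENCODE 29, which uses another build than the authors did, and promoter windows were found for all 10 members. No other gene overlaps an exon of a member there, apart from antisense genes at IRS2 and IGFBP5, whose reads cannot be told apart.

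The members and lists were chosen with earlier results of these data known. Named genes were the members, ERBB2, EGFR, ERBB3, up to 3 called genes of each list with the largest difference (or 2 by level), and the 3 genes nearest to IGFBP3. Neighbouring genes, the adaptors that fell, the level or uncalled genes named in the lists, the rows like IGFBP5, the length classes and the motifs were chosen after values were seen. Alternatives were another pseudocount, centring, scaling to equal sums, an FPKM minimum, summed rows, a stricter q-value, a minimum difference and keeping exact 0 values. The deposited q-values were kept under all of them, so calls after rescaling differ by direction only.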

Additional observations from a re-analysis of the deposited data

How the results depend on the processing

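Of 54 alternative values, 50 kept their direction and stayed within 1.5 times for counts, medians and ratios. Many of the 54 could not have changed label, so this count is no measure of stability. Single differences were judged by sign alone, which another pseudocount cannot change. Both other scalings could only shift differences upward, and scaling to equal sums left parental values as they were. The 6 members called higher and 0 called lower held with a q-value under 0.01, and limiting calls to differences of at least 1 left 5. Both other scalings shift differences upward and keep the deposited q-values. They could therefore neither remove one of the 6 calls nor add a lower one. The FPKM minimum left out IGFBP6 alone, which was not called, so it could not change the calls either. Relative to the all-gene median the difference of IGFBP4 turned to 0.092, and with equal FPKM sums those of IGFBP4 and IGFBP2 turned to 0.33 and 0.23. Neither was called. Summing rows could change no member, since each has 1 row, and keeping exact 0 values could add no call, since IGFBP5 has a q-value of 1. The median of the members was 0.66 with the exact 0 of IGFBP5 kept as a value.

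No paired analysis was possible because the table holds 1 value per group, and leaving out a replicate was not run for the same reason. Without values per library, the spread between replicates, the influence of a single library and the depth behind each value are unknown.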
